A study of Mus musculus with 28 samples.

Results

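The keratins described here are 10 genes chosen by name: Krt5, Krt7, Krt8, Krt14, Krt17, Krt18, Krt19, Krt20, Krt23 and Krt80. They are 10 of the 29413 genes in a table of organoids given bone morphogenetic proteins (BMPs) and 10 of the 55416 genes in a table of organoids given Tgfb. Messenger RNA was sequenced in 28 samples. Organoids, cultures grown from the small-intestinal epithelium of C57BL/6 mice without an altered gene, made up 20 samples of the first table, of which 4 were left untreated and 4 received recombinant BMP2, while BMP3, BMP4, BMP5 and BMP7 were each given to 3. In the second table, 3 such cultures received recombinant Tgfb, whose isoform the labels do not name, and 3 were left untreated. Each ligand was given at 500 ng/ml for 24 h. All organoids, controls included, were started from crypts in ENR medium without added ligand, and the field uses ENR for EGF, the BMP antagonist Noggin and R-spondin. A further table held 1 sample of freshly isolated PdgfraH2BeGFP mouse duodenal mesenchymal cells and 1 sample of such cells immortalised with a viral E6 gene and sorted. The labels do not say whether replicates came from separate mice, so p-values measure the spread between these samples, which may be technical in part.

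Keratins are the intermediate filament proteins of epithelial cells, and each filament pairs a type I with a type II keratin. Simple epithelia such as the gut lining use the type II keratin Krt8 with the type I keratins Krt18 and Krt19, and Krt20 is a type I keratin of the differentiated cells of the villus. Krt5 and Krt14 pair in the basal cells of stratified (squamous) epithelia, and Krt17, Krt16 and Krt6a are known from skin appendages and wounded skin. BMPs and Tgfb act through receptor kinases that activate Smad transcription factors, and in the intestine BMP signalling is known to be strongest towards the villus. The series title asks how such ligands govern the last steps of enterocyte maturation at the villus tip, and the comparisons below give each ligand against untreated organoids and the ligands against each other.

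Values of the BMP table are normalized counts, that is gene counts divided by 1 scaling factor per sample, at a depth of 21357517 to 24781767 reads per sample. Values of the TGFb table are TPM, a share of all transcripts that takes gene length into account but keeps no depth. The 2 tables were scaled separately, so no level was compared between them. The summed normalized counts were 19885612 ± 702378 (SD, n = 4) in untreated organoids, 27350549 ± 1181883 (SD, n = 4) with BMP2 and 26232395 ± 706629 (SD, n = 3) with BMP4. All 10 fixed markers of intestinal epithelium had reads in every organoid sample, and their levels moved with the ligands. With BMP2, Epcam went from 20825 ± 1595 to 85375 ± 7075, Cdh1 from 22875 ± 1021 to 104250 ± 3948 and the stem cell marker Lgr5 from 4340 ± 971 to 9.50 ± 5.96 (SD, n = 4 each). Cdx1 went from 2260 ± 106 to 414 ± 64.1 and Lyz1 from 49350 ± 5625 to 25300 ± 11548 (SD, n = 4 each). Muc2 and Cdx2 also had lower means with BMP2, with overlap. Vil1, Chga and Alpi had higher means, for Alpi with overlap. With BMP4, Lgr5 was at 26.9 ± 11.9 and the enterocyte enzyme Alpi went from 10848 ± 2058 (SD, n = 4) to 90700 ± 3859 (SD, n = 3). Of 4 mesothelial markers, a cell type that also makes simple keratins, Wt1 was not analysed in this table, Lrrn4 stayed at or below 7.99 and Upk3b was lower with BMP2 (1.21 ± 0.930) than in controls (70.9 ± 42.9), while Msln was higher (2865 ± 1281 against 836 ± 207, SD, n = 4 each). The summed level of the 5 mesenchymal markers analysed in this table ran from 122 to 206 in controls, from 70.4 to 91.8 with BMP2 and from 25.1 to 26.1 with BMP4. Most of it was Vim (149 ± 28.5 in controls, 34.5 ± 3.27 with BMP2), while Pdgfra went the other way with BMP2 (0.667 ± 0.852 to 22.9 ± 10.4), as did Col1a1 (5.93 ± 9.08 to 15.9 ± 4.26, with overlap). Of the 3 endothelial markers, Cdh5 had no read in controls and 22.7 to 40.9 normalized counts with BMP2. Pecam1 was already present without ligand, at 569 to 774, and its BMP2 samples spanned 789 to 988. Kdr, listed at 0 without ligand, did not exceed 2.56 in any BMP2 sample. The summed level of the 5 immune markers ran from 80.7 to 95.1 in controls, from 41.2 to 89.8 with BMP2 and from 137 to 240 with BMP4. Itgam was at 36.4 to 46.3 in controls, at 114 to 170 with BMP4 and at 7.67 to 17.7 with BMP2. With BMP4, Ptprc, Lyz2 and Cd79a overlapped the controls and Cd3e did not exceed 5.98. The part of these changes in the keratin values was not tested. In bulk samples, fewer cells of a type and less RNA per cell cannot be told apart.

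A gene was tested with limma on log2(value + 1) if its mean reached 10 normalized counts or 1 TPM, and called at a Benjamini-Hochberg adjusted p under 0.05. Of the 10 members, 8 passed this filter in each table. Krt5 and Krt17 did not, and Krt14 passed through the treated samples alone, as did Krt80 in the TGFb table. A gene that passed in this way is likely to be called, so the counts of members against untreated organoids leave these out. With BMP2, 7 of 7 other members were called higher, where 36.8% of all tested genes were called higher and 38.4% lower. BMP4 gave 6 of 7 against a background of 33.7% higher and 31.4% lower, BMP5 gave 7 of 7 against 16.5% and 9.87%, BMP7 gave 7 of 7 against 19.2% and 13.2%, and Tgfb gave 6 of 6 against 27.4% and 29.3%. With BMP3 limma called no member and no gene of 14746 (0%), while DESeq2 called 1 gene and edgeR 0. In limma 110 genes had an unadjusted p under 0.05 with BMP3, fewer than that threshold would pass by chance. The main fit did not use the replicate numbers, although same-numbered BMP3 and control samples had correlated deviations (0.281 to 0.553). Of the members counted, BMP2 gave called increases of at least 4-fold for 7 (8.99% of all genes), BMP4 for 1 (4.72%), BMP5 for 2 (2.54%), BMP7 for 2 (2.97%) and Tgfb for 5 (3.82%). Their median log2 change under BMP2, BMP4, BMP5, BMP7 and Tgfb was 3.19, 0.92, 1.51, 1.60 and 2.39, beside -0.03, 0.04, -0.03, -0.05 and -0.04 over all tested genes. The 5 BMP comparisons use the same 4 control samples. The members were chosen with earlier results of these data known, so these counts may in part reflect that choice. With every sample set to the same total, the median of all genes lay at -0.49 under BMP2 and -0.35 under BMP4, and the higher genes' share of all calls went from 48.9% to 31.5% and from 51.7% to 30.9%. For BMP5 and BMP7 quantile normalization moved that share from 62.5% to 49.8% and from 59.4% to 48.0%.

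**Figure D1:**
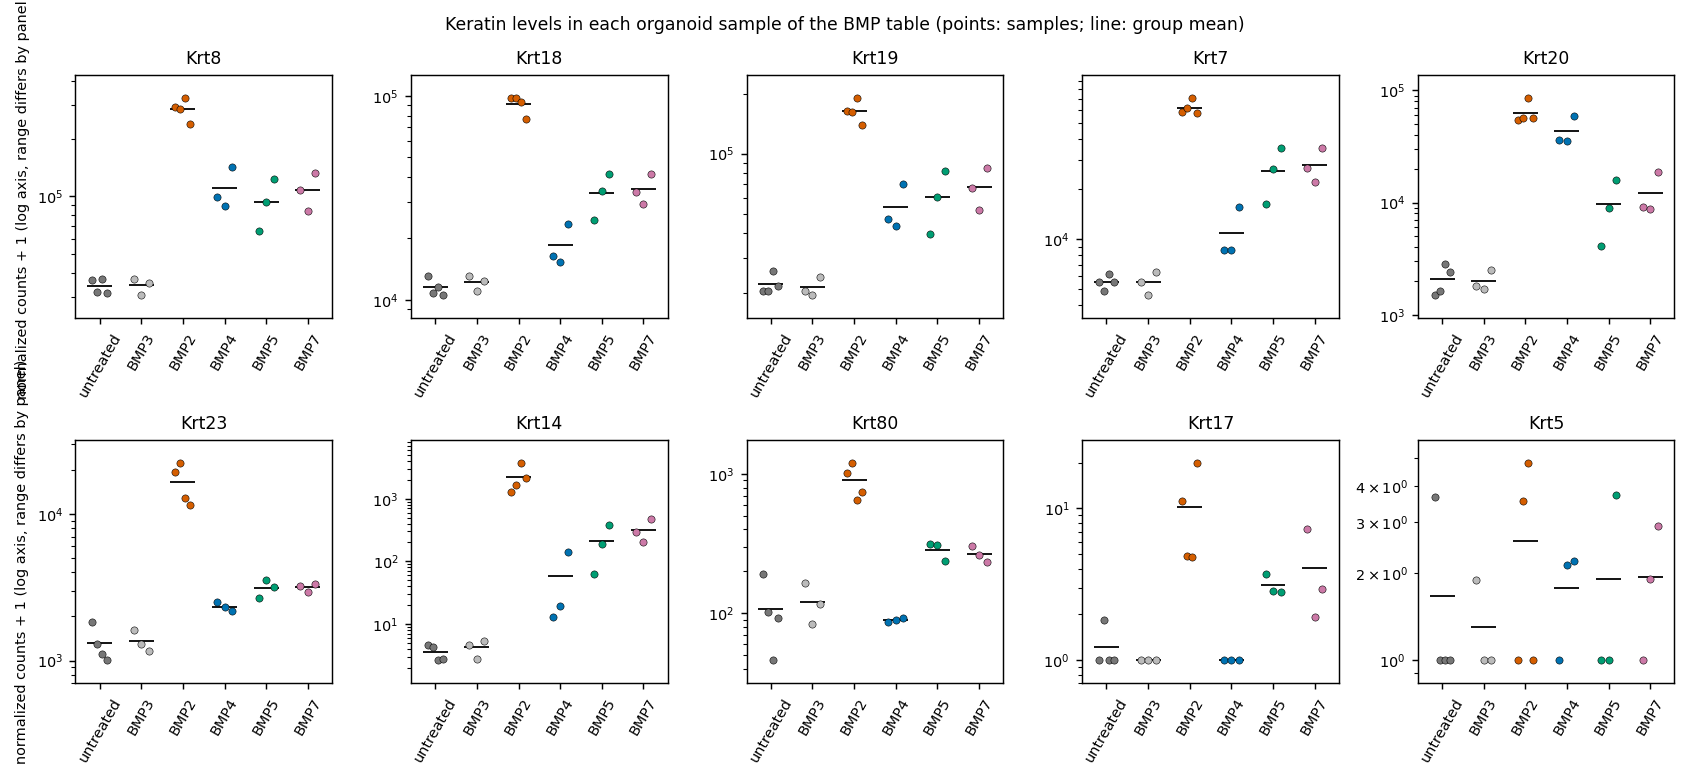
Normalized counts plus 1 of the 10 keratins (vertical, log axis whose range differs by panel) in each of the 20 organoid samples of the BMP table by ligand (horizontal). Points are samples and lines are group means. BMP3 lies with the untreated samples in every panel, BMP2 has the highest mean in every panel, and Krt20 is the panel in which BMP4 comes close to BMP2.

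With each ligand other than BMP3, the keratins also took a larger share of all normalized counts or of TPM. Normalized counts are not corrected for gene length, so in the BMP table this is a share of reads. The 10 members together held 0.386% ± 0.0206 (SD, n = 4) of all normalized counts in untreated organoids and 2.50% ± 0.201 (SD, n = 4) after BMP2. The share was 0.908% ± 0.222 under BMP4, 1.11% ± 0.330 under BMP5, 1.22% ± 0.251 under BMP7 and 0.393% ± 0.0406 under BMP3 (SD, n = 3 each). In the TGFb table it was 0.232% ± 0.0131 of TPM in controls and 1.33% ± 0.239 with Tgfb (SD, n = 3 each). The lowest treated sample lay above the highest control for each ligand other than BMP3, whose samples overlapped the controls.

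Of the simple keratins, Krt8 (ENSMUSG00000049382), the type II keratin of the gut epithelium, stood at 31200, 31500, 36500 and 37200 normalized counts in untreated organoids. It stood at 238000, 285000, 292000 and 326000 with BMP2, at 88900, 99100 and 142000 with BMP4, at 65700, 93000 and 123000 with BMP5, and at 83700, 108000 and 132000 with BMP7. With BMP3 it stood at 30700, 35400 and 37100, within the range of the controls. No BMP2, BMP4, BMP5 or BMP7 sample overlapped the untreated group, and no sample of the other ligands reached the BMP2 range. The log2 change under BMP2 was 3.06 (SE 0.195, limma adjusted p 6.7e-11). It was 1.66 (SE 0.210, adjusted p 1.45e-06) under BMP4, 1.42 (SE 0.210, adjusted p 6.43e-05) under BMP5 and 1.64 (SE 0.210, adjusted p 9.86e-06) under BMP7.

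Krt19 (ENSMUSG00000020911), a type I partner of Krt8, stood at 20500, 20500, 21600 and 25800 in untreated organoids. It reached 140000, 161000, 163000 and 190000 with BMP2, 43500, 46900 and 70800 with BMP4, 39600, 60900 and 81600 with BMP5, and 52300, 67100 and 84400 with BMP7. The groups followed those of Krt8, with every sample of these 4 ligands above the controls and BMP2 above the rest. The log2 changes were 2.89 (SE 0.204, limma adjusted p 2.85e-10) with BMP2, 1.25 (SE 0.221, adjusted p 6.47e-05) with BMP4, 1.40 (adjusted p 0.000117) with BMP5 and 1.60 (adjusted p 2.16e-05) with BMP7.

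Krt18 (ENSMUSG00000023043), the other type I partner of Krt8, stood apart in the BMP4 samples. It was at 10600, 10800, 11600 and 13100 in untreated organoids and at 15400, 16400 and 23600 with BMP4, a log2 change of 0.66 (SE 0.176, limma adjusted p 0.00291). With BMP2 it was at 76600, 93400, 97400 and 97500, a log2 change of 2.98 (SE 0.163, adjusted p 9.25e-12). BMP5 gave 24600, 34300 and 41600, and BMP7 gave 29500, 33900 and 41300, with log2 changes of 1.51 and 1.59 (SE 0.176 each, adjusted p 5.5e-06 and 2e-06). Thus every BMP4 sample lay below every BMP5 and BMP7 sample for Krt18, whereas for Krt8 those groups overlapped. The Krt18 call with BMP4 depended on the scaling of samples: with every sample set to the same total the log2 change was 0.26 (adjusted p 0.151), and with quantile normalization it was 0.05 (adjusted p 0.776).

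Krt7 (ENSMUSG00000023039) is a type II keratin known mainly from ducts and other simple epithelia. It stood at 4890, 5510, 5520 and 6180 in untreated organoids and at 57200, 58000, 61300 and 70500 with BMP2. The values were 8540, 8620 and 15500 with BMP4, 16200, 26200 and 35100 with BMP5, and 22100, 26600 and 35100 with BMP7. All BMP4 samples were below all BMP5 and BMP7 samples, and all were above the controls. The log2 changes were 3.48 (SE 0.216, limma adjusted p 4.73e-11) with BMP2, 0.92 (SE 0.233, adjusted p 0.00189) with BMP4, 2.16 (adjusted p 2.36e-06) with BMP5 and 2.32 (adjusted p 7.44e-07) with BMP7. With quantile normalization the BMP4 value was 0.36 (adjusted p 0.139).

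The ratio of Krt18 to Krt8 within a sample does not depend on a scaling factor per sample, though quantile normalization can change it. Its log2 value was -1.57 ± 0.0846 (SD, n = 4) in untreated organoids and -2.57 ± 0.0364 (SD, n = 3) with BMP4. The BMP4 samples did not overlap the controls, and the difference of -1.01 had an exact two-sided permutation p of 0.0571, which is the smallest that 3 samples against 4 can give (0.343 after adjustment over 6 comparisons). With BMP2, BMP3, BMP5, BMP7 and Tgfb the difference lay between -0.08 and 0.09, and each of these groups overlapped its controls. Krt8 and Krt18 are next to each other on chromosome 15 in the RefSeq annotation. Krt80 and Krt7 are neighbours on the same chromosome, and Krt20 and Krt23 are neighbours on chromosome 11.

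**Figure D2:**
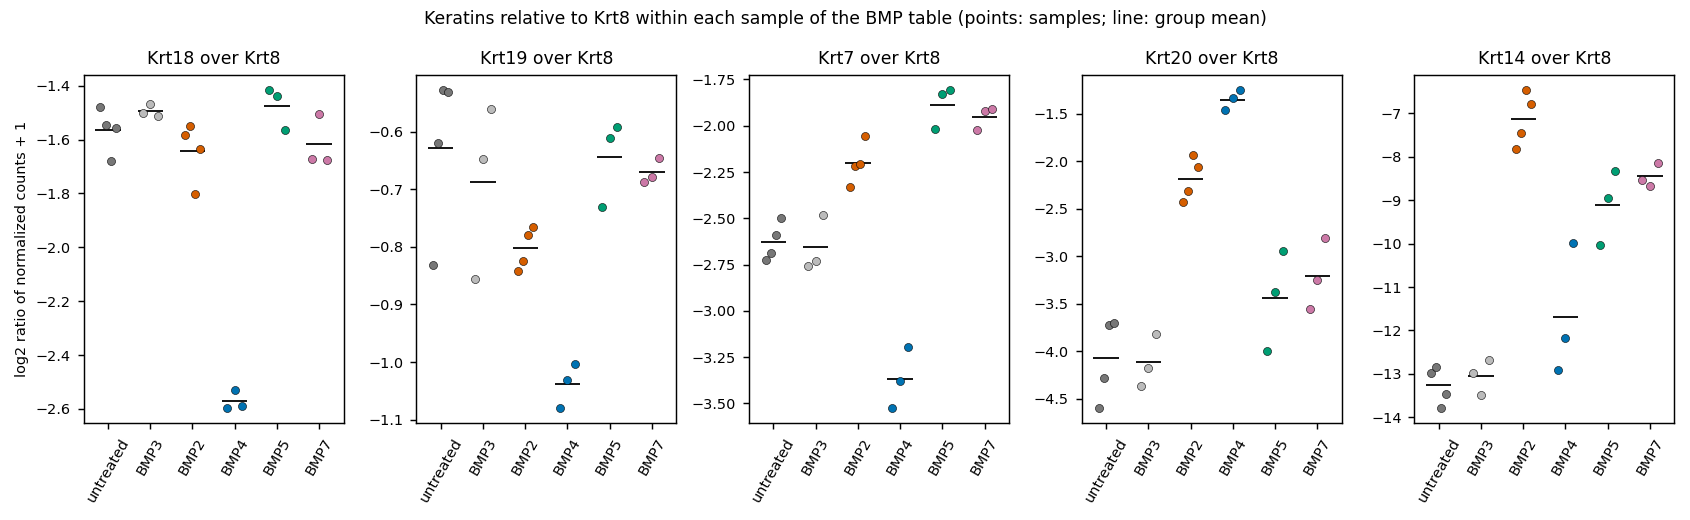
Log2 ratio of 5 keratins to Krt8 within each sample of the BMP table (vertical, normalized counts plus 1, range differs by panel) by ligand (horizontal). Points are samples and lines are group means. The BMP4 samples are lowest for Krt18, Krt19 and Krt7 over Krt8 and highest for Krt20 over Krt8.

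Sequences just before the transcription start are shown for 4 members. They are the neighbouring pair Krt8 and Krt18, and the villus and squamous type I keratins Krt20 and Krt14. The ratio of Krt18 to Krt8 was lower in the BMP4 samples but was not called. The sequences are 250 bases upstream of the start, 5′ to 3′ in the direction of the gene, from RefSeq on GRCm38.p6, where 7 of the 10 members had an entry. Capitals mark CAGACA or its reverse complement, the letters of a Smad3/4 element, and GGCGCC, the letters of a BMP-type Smad element.
Krt8: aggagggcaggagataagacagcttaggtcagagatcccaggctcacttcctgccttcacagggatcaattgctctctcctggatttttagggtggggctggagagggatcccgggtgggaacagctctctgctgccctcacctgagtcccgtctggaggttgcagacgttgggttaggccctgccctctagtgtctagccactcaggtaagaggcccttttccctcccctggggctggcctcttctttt
Krt18: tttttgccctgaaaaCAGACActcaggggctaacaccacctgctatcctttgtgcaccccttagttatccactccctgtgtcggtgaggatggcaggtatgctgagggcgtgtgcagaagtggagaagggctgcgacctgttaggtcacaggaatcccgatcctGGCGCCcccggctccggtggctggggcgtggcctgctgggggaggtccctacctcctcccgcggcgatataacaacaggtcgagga
Krt14: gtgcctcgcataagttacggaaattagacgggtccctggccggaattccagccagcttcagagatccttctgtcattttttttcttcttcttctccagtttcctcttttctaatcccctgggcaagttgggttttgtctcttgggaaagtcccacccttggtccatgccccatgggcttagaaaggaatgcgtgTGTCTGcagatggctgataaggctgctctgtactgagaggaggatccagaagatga
Krt20: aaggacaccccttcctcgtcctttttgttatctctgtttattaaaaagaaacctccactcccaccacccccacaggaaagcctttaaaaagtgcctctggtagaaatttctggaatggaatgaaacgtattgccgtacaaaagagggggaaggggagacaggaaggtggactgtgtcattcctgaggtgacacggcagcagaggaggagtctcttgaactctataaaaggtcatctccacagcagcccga
The windows are chr15:102004343-102004592 (minus strand) for Krt8, chr15:102027966-102028215 (plus strand) for Krt18, chr11:100206031-100206280 (minus strand) for Krt14 and chr11:99438154-99438403 (minus strand) for Krt20. In all, 4 motifs were searched on both strands. CAGACA was found in the windows of Krt18, Krt14 and Krt7, starting 235, 56 and 171 bases before the start, and in 17.1% of 32851 mouse promoter windows of this length. GGCGCC was found for Krt18 alone, 86 bases before the start (9.59% of all windows), and TTTATG, the letters of a CDX2 element, for Krt23 alone (10.8%). TGANTCA, the letters of an AP-1 element, was in none of the 7 (6.75%). None of the 4 was in the Krt8 or Krt20 window.

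Krt20 (ENSMUSG00000035775), the keratin of differentiated villus cells, rose with BMP4 and BMP2 to ranges that overlapped. It stood at 1510, 1620, 2400 and 2820 normalized counts in untreated organoids and at 35200, 36000 and 59500 with BMP4. With BMP2 it stood at 54200, 57200, 57300 and 85400. These groups were far above the controls and overlapped each other, with 1 BMP4 sample above 3 of the BMP2 samples, although BMP2 was the higher in each pair with the same replicate number. BMP5 gave 4120, 8940 and 16000 and BMP7 gave 8810, 9190 and 18800, above every control and below every BMP4 sample. The log2 changes were 4.95 (SE 0.340, limma adjusted p 1.89e-10) with BMP2, 4.39 (SE 0.368, adjusted p 9.46e-09) with BMP4, 2.05 (SE 0.368, adjusted p 0.000398) with BMP5 and 2.51 (SE 0.368, adjusted p 4.02e-05) with BMP7. Krt20 held 2.71% ± 0.722 of the summed normalized counts of the 10 members in controls (SD, n = 4), and BMP4 gave 18.1% ± 0.894 (SD, n = 3). BMP2 gave 9.24% ± 1.38 (SD, n = 4), BMP5 3.98% ± 1.31 and BMP7 4.69% ± 1.16 (SD, n = 3 each).

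Among the squamous-type members, Krt14 (ENSMUSG00000045545) had the widest range. In untreated organoids it had 2, 2, 4 and 4 reads, or 1.65 to 3.55 normalized counts, and with BMP3 it had 2, 4 and 5 reads. It stood at 1300, 1640, 2160 and 3680 normalized counts with BMP2, at 205, 289 and 467 with BMP7, at 61.9, 186 and 380 with BMP5, and at 11.9, 18.3 and 139 with BMP4. Every sample of these 4 ligands was above the controls, every BMP2 sample was above all others, and the BMP4 group was low apart from replicate VI. The log2 changes were 9.19 (SE 0.615, limma adjusted p 1.29e-10) with BMP2, 6.45 (SE 0.664, adjusted p 9.6e-07) with BMP7, 5.57 (SE 0.664, adjusted p 7.14e-06) with BMP5 and 3.24 (SE 0.664, adjusted p 0.000306) with BMP4. Since the controls held only a few reads, these values depend on the added constant, and with 10 in place of 1 they were 7.35, 4.64, 3.81 and 1.85. Without BMP4 replicate VI the BMP4 value was 2.19 (adjusted p 0.00246), without BMP4 replicate II it was 3.91, and without BMP5 replicates II or VI the BMP5 value was 6.27 or 4.97.

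Krt80 (ENSMUSG00000037185), a type II keratin of differentiating epithelia, rose with 3 of the BMPs and was not called with BMP4. It stood at 45.4, 92.3, 101 and 191 in untreated organoids and at 85.3, 89 and 92.1 with BMP4, a log2 difference of -0.10 (95% interval -0.80 to 0.61, limma adjusted p 0.818). With BMP2 it stood at 648, 743, 1020 and 1190, with BMP5 at 235, 309 and 313, and with BMP7 at 232, 261 and 305. All of these lay above the highest control, and the BMP4 samples lay inside the control range. The log2 changes were 3.19 (SE 0.309, adjusted p 2.31e-08), 1.57 (SE 0.334, adjusted p 0.0018) and 1.47 (SE 0.334, adjusted p 0.00239).

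Krt17 (ENSMUSG00000035557) and Krt5 (ENSMUSG00000061527), which stood below the filter, had few reads in every sample. Krt17 had 0, 0, 0 and 1 reads in untreated organoids, none in the 3 BMP3 and 3 BMP4 samples, 3, 3, 9 and 16 with BMP2, 2, 2 and 3 with BMP5, and 1, 2 and 7 with BMP7. Without the filter on low values, limma called it with BMP2 (adjusted p 1.62e-05) and BMP7 (adjusted p 0.033) and not with BMP5 (adjusted p 0.0674). Krt5, the usual type II partner of Krt14, had 0 to 3 reads in each of the 20 samples and was called with no ligand (the lowest adjusted p was 0.5, with BMP2). Krt14, Krt16 and Krt17 are close copies in parts of their sequence, so reads shared between them could be divided in more than 1 way.

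Krt23 (ENSMUSG00000006777), a type I keratin set apart from these classes, stood at 1010, 1110, 1300 and 1820 in untreated organoids and at 11500, 12800, 19300 and 22100 with BMP2. It stood at 2190, 2320 and 2490 with BMP4, at 2680, 3180 and 3550 with BMP5, and at 2930, 3250 and 3320 with BMP7, above every control. The log2 changes were 3.63 (SE 0.194, limma adjusted p 6.95e-12) with BMP2, 0.87 (SE 0.209, adjusted p 0.00129) with BMP4, 1.29 (adjusted p 0.000158) with BMP5 and 1.31 (adjusted p 9.77e-05) with BMP7. With every sample set to the same total the BMP4 value was 0.47 (adjusted p 0.0501). Within the BMP2 group, Krt23 and Krt80 were lowest in replicates IV and VI, where Krt14 was highest.

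**Figure D3:**
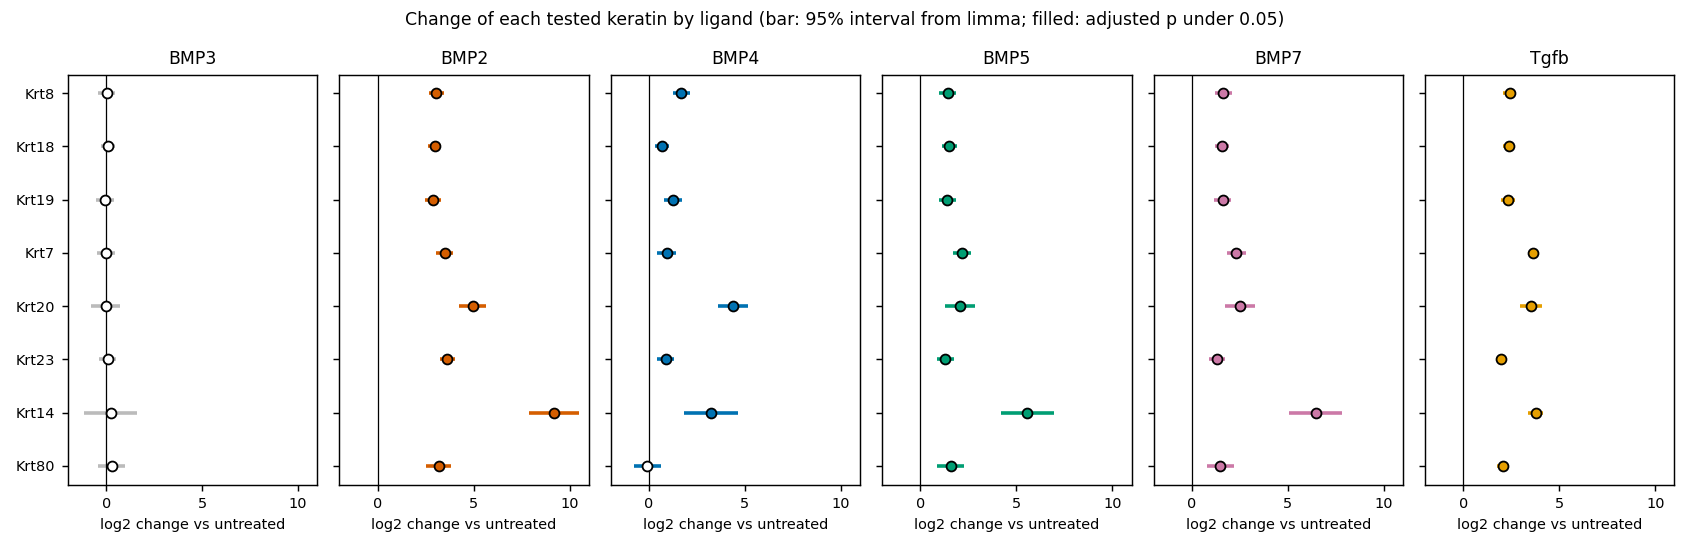
Log2 change of each tested keratin against untreated organoids (horizontal) for BMP3, BMP2, BMP4, BMP5, BMP7 and Tgfb (panels). Points are limma estimates, bars are 95% intervals, and filled points passed an adjusted p of 0.05. Krt20 and Krt14 lie farthest to the right with BMP4, and Krt80 is the open point in that panel.

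The ligands were then compared with each other at the same dose and time, in 6 pairs, with no control sample in the comparison. The 8 members counted in these pairs include Krt14, which passed the filter through treated samples alone. BMP2 gave higher levels than BMP4 for 7 of 8 tested members, where 33.4% of all genes were called higher. The exception was Krt20, with a log2 difference of 0.56 (95% interval -0.21 to 1.34, limma adjusted p 0.187). With the replicate number as a block the Krt20 difference was called (0.53, adjusted p 0.0215). The other differences ran from 1.40 for Krt8 (SE 0.210, adjusted p 1.05e-05) through 2.32 for Krt18, 2.56 for Krt7 and 3.29 for Krt80 to 5.96 for Krt14 (SE 0.664, adjusted p 2.43e-07). Without BMP4 replicate VI the Krt14 difference was 7.01, and without BMP4 replicate II it was 5.29. BMP2 was also above BMP5 and above BMP7 for 8 of 8 members (32.2% and 31.4% of all genes were called higher), by 1.32 to 3.62 and by 1.17 to 2.74 on the log2 scale. With the same total in every sample, the higher genes' share of all calls went from 49.6% to 26.3% against BMP5 and from 50.1% to 26.5% against BMP7.

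Between BMP4 and its counterparts BMP5 and BMP7, members were called in both directions, as were genes at large. Krt20 was higher with BMP4, by 2.33 over BMP5 (SE 0.393, limma adjusted p 4.87e-05) and by 1.88 over BMP7 (SE 0.393, adjusted p 0.000447). Against BMP5, 1 of 8 members was called higher and 4 lower, where 28.4% and 31.7% of all genes were. Against BMP7 the counts were again 1 and 4, where 28.4% and 31.4% were. In each comparison 5 of 8 members were called in either direction, beside 8863 and 8818 of all 14746 genes, which is a similar share. With the same total, the higher genes' share of all calls went from 47.3% to 27.3% and from 47.5% to 28.6%. The 4 lower members were Krt18, Krt7, Krt80 and Krt14 in both comparisons. Krt18 differed by -0.85 and -0.93 on the log2 scale (limma adjusted p 0.000677 and 0.000314), Krt7 differed by -1.24 and -1.39 (adjusted p 0.000304 and 9.72e-05), and Krt80 by -1.66 and -1.56 (adjusted p 0.000541 and 0.000966). Krt14 differed by -2.34 and -3.22 (adjusted p 0.00822 and 0.00072). The Krt14 call against BMP5 was lost without BMP4 replicate II (adjusted p 0.0621) or without BMP5 replicate VI (adjusted p 0.0566), and its groups overlapped.

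For Krt8 the intervals of BMP4 against BMP5 and BMP7 were -0.23 to 0.72 and -0.45 to 0.49, and those for Krt19 were -0.64 to 0.35 and -0.84 to 0.15. These 4 differences were not called by limma under the authors' scaling. With quantile normalization Krt19 was called lower with BMP4 in both comparisons (-0.69 and -0.999, adjusted p 0.00514 and 0.000262), as was Krt8 against BMP7 (-0.53, adjusted p 0.0453). With the same total in every sample limma also called Krt19 lower in both (-0.51 and -0.68, adjusted p 0.0463 and 0.0108). Krt8 was not called with the same total (adjusted p 0.633 and 0.188). Krt23 differed by -0.42 and -0.44 (adjusted p 0.115 and 0.0988). The Krt23 differences were called with the replicate number as a block (adjusted p 0.0404 and 0.0325), with quantile normalization (0.0124 and 0.0164), with the same total (0.00434 and 0.00488) and with edgeR (0.0473 and 0.0392). BMP5 and BMP7 were not told apart for any member, and 0.0136% of all genes were called between them. The widest interval was that of Krt14, -2.37 to 0.61, and the narrowest that of Krt18, -0.47 to 0.32.

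In total, 7 ratios to Krt8 were tested between BMP2 and BMP4 after their values had been seen. Relative to Krt8, the log2 ratio of Krt20 was lower with BMP2 than with BMP4 (-2.18 ± 0.229, n = 4, against -1.35 ± 0.104, n = 3, SD). That of Krt18 was higher with BMP2 (-1.64 ± 0.113 against -2.57 ± 0.0364), as were those of Krt7 (-2.20 ± 0.113 against -3.37 ± 0.164) and Krt14 (-7.13 ± 0.610 against -11.69 ± 1.52). None of the 7 ratios overlapped between the groups, but all share Krt8 and the same samples, so they are not 7 separate results. Each exact two-sided permutation p was 0.0571, the smallest possible for 4 samples against 3, and remained 0.0571 after adjustment over the 7. The share of all genes whose ratio to Krt8 did not overlap is not given here. By level, 9847 of 14746 genes were called between BMP2 and BMP4.

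In the TGFb table the levels of different keratins can be compared, since TPM accounts for length. Krt19 was highest in untreated organoids, at 1036, 1064 and 1124 TPM, followed by Krt8 at 682, 731 and 788, Krt18 at 295, 331 and 332, and Krt7 at 98.5, 101 and 104. Krt20 followed at 58.7, 59.6 and 85.3 TPM and Krt23 at 21.1, 22.9 and 24.8, while Krt80 stood at 0.321 to 0.437 and Krt14 at 0.0937 to 0.265. No neighbours in this order overlapped. With Tgfb, Krt19 was at 4761, 4978 and 6648 TPM, Krt8 at 3387, 3722 and 4757, Krt18 at 1474, 1579 and 1914, and Krt7 at 1149, 1174 and 1525. The order of these 4 held within each library, though the Krt18 and Krt7 ranges overlapped. Krt14, at 13.1, 13.1 and 18.4 TPM with Tgfb, stood above Krt80 at 4.71, 4.74 and 5.22, the reverse of the order in controls.

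**Figure D4:**
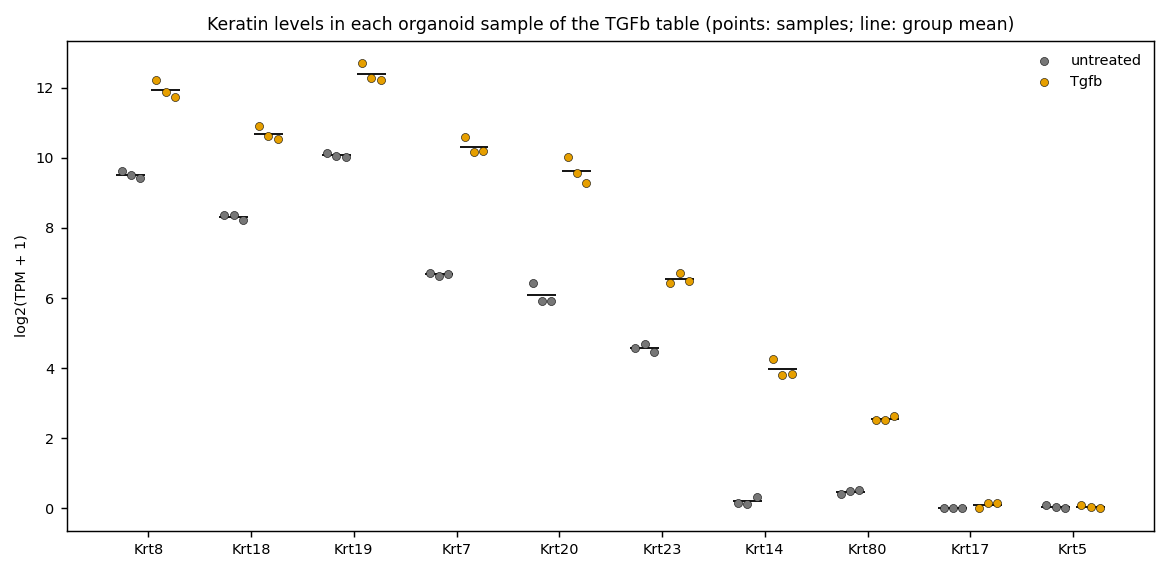
Log2(TPM + 1) of the 10 keratins (vertical) in the 3 untreated and 3 Tgfb-treated organoid samples of the TGFb table, by gene (horizontal). Points are samples and lines are group means. Apart from Krt17 and Krt5 every Tgfb sample lies above every control, and these lie near 0 in both groups.

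Among the simple keratins, Krt7 had the largest log2 change with Tgfb in the limma fit. It was 3.64 (SE 0.121, limma adjusted p 5.8e-06), that of Krt8 was 2.42 (SE 0.143, adjusted p 3.75e-05), that of Krt18 was 2.36 (SE 0.117) and that of Krt19 was 2.33 (SE 0.143). The log2 ratio of Krt7 to Krt8 was -2.84 ± 0.0864 in controls and -1.62 ± 0.0853 with Tgfb (SD, n = 3 each), without overlap, and was not tested. Krt20 rose from 67.9 ± 15.1 to 806 ± 218 TPM (SD, n = 3 each), a log2 change of 3.54 (SE 0.232, adjusted p 5.39e-05), and its share of the members' TPM went from 2.91% ± 0.494 to 6.01% ± 0.614. Krt23 rose by 1.96 (SE 0.103, adjusted p 2.37e-05). Krt14 and Krt80 rose by 3.76 (SE 0.163, adjusted p 1.34e-05) and 2.08 (SE 0.132, adjusted p 4.73e-05), and for these low genes the values became 5.91 and 3.35 with an added constant of 0.1 and 1.28 and 0.52 with 10. Msln, among the mesothelial markers, was at 6.39 ± 3.04 TPM in controls and 88.6 ± 29.5 with Tgfb, while Upk3b was at 1.59 ± 0.264 and 0.160 ± 0.0213 and Wt1 was listed at 0. The part of other cell types in the keratin values was not tested.

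Keratin network partners were mostly called higher too. The list holds desmosomal, hemidesmosomal and linker proteins that anchor keratin filaments, and others such as Sfn, Fam83h, Csnk1a1 and Tchp. Of 20 tested genes, BMP2 gave 19 called higher and 0 lower, BMP4 gave 16 and 1, BMP5 gave 17 and 0, BMP7 gave 18 and 0, and Tgfb gave 19 and 0. As for the members, these counts stand beside background shares called higher of 36.8%, 33.7%, 16.5%, 19.2% and 27.4%. Their median log2 changes were 1.94, 0.94, 0.91, 1.11 and 1.47, against medians of all tested genes between -0.05 and 0.04. In this and the lists that follow, each gene said to have risen or fallen passed the adjusted p of 0.05 in limma. The lists, like the members, were chosen with earlier results of these data known, so their counts may in part reflect that choice. Sfn, a 14-3-3 adaptor protein of epithelia, went from 1132 ± 94.6 without ligand to 21875 ± 3131 under BMP2 (SD, n = 4 each), a log2 change of 4.26, and rose by 2.31, 2.70 and 3.84 with BMP5, BMP7 and Tgfb. Plec, which encodes the linker plectin, rose by 2.83, 2.001, 1.44 and 2.65 under BMP2, BMP4, BMP5 and Tgfb. Evpl, which encodes the desmosomal linker envoplakin, rose by 2.05 with BMP4, and Itgb4, an integrin of hemidesmosomes, rose by 1.58 with BMP7. Tchp, which encodes the keratin-binding protein trichoplein, fell by 0.55 with BMP4 (limma adjusted p 0.00366). With BMP4, 3 of these genes were called lower under quantile normalization or the same total.

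Of the 20 listed squamous epithelium genes, 9 were tested in the BMP table and 7 in the TGFb table, and the basal regulator Trp63 was below the filter in both. BMP2 gave 6 called higher and 1 lower, BMP4 7 and 2, BMP5 and BMP7 6 and 0 each, and Tgfb 5 and 1, with median log2 changes of 4.00, 2.08, 2.36, 2.50 and 4.44. The same background shares apply, from 16.5% (BMP5) to 36.8% (BMP2) called higher and from 9.87% to 38.4% lower. Ivl in the BMP table and Anxa8 and Lgals7 in the TGFb table passed the filter through treated samples alone, and without them the counts were 5 and 1, 6 and 2, 5 and 0, 5 and 0, and 3 and 1. Anxa8, which encodes an annexin, went from 150 ± 22.9 without ligand to 10502 ± 801 under BMP2 (SD, n = 4 each), and its log2 changes under BMP2, BMP5, BMP7 and Tgfb were 6.13, 3.67, 4.18 and 6.02. Ly6d, a surface protein of squamous cells, rose by 6.21, 3.002, 3.12, 3.26 and 5.56 under BMP2, BMP4, BMP5, BMP7 and Tgfb. Aqp3, a water and glycerol channel, rose by 3.55 with BMP4. Tgm1, the transglutaminase of the cornified envelope, fell with BMP4 from 14.01 ± 7.58 to 2.75 ± 0.732. Gjb2, which encodes connexin 26, fell by 1.47 with BMP2 and 1.60 with BMP4. With Tgfb its change of -0.20 (limma adjusted p 0.0484) was lost when any of 5 of the 6 samples was left out.

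Of 12 villus tip genes, BMP2 gave 10 called higher and 1 lower, BMP4 12 and 0, BMP5 6 and 1, BMP7 8 and 1, and Tgfb 10 and 1, with median log2 changes of 3.48, 2.83, 1.46, 1.80 and 2.40. Of all genes, 36.8%, 33.7%, 16.5%, 19.2% and 27.4% were called higher and 38.4%, 31.4%, 9.87%, 13.2% and 29.3% lower. Nt5e passed the filter in the TGFb table through treated samples alone, and without it Tgfb gave 9 and 1. Nt5e, which encodes the ectonucleotidase CD73, stood at 18.7 ± 8.22 without ligand, at 4368 ± 2774 under BMP2 (SD, n = 4 each) and at 364 ± 161 under BMP4 (SD, n = 3). Clca4a, a villus chloride channel accessory gene, rose by 6.94, 5.65, 3.45, 4.17 and 4.47 on the log2 scale under BMP2, BMP4, BMP5, BMP7 and Tgfb. Fos, an immediate early transcription factor gene, rose by 4.09 with Tgfb. Enpep, a brush border aminopeptidase, fell by 4.99, 1.83, 1.72 and 2.76 under BMP2, BMP5, BMP7 and Tgfb, and rose by 2.43 with BMP4 (adjusted p 0.000241).

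Of 16 tested transcription factors known to act on keratin genes, BMP2 gave 8 called higher and 2 lower, BMP4 8 and 3, BMP5 5 and 2, BMP7 7 and 1, and Tgfb 7 and 6, with median log2 changes of 0.63, 0.52, 0.36, 0.45 and 0.33. They stand beside the background shares of all genes just given, which for BMP2 and Tgfb were 36.8% and 27.4% higher and 38.4% and 29.3% lower. With Tgfb, Fosl1, Grhl1 and Grhl3 passed the filter through treated samples alone, and the other 13 genes gave 5 and 6 with a median of -0.20. The count of lower genes with BMP2 was 6 under quantile normalization and 7 with the same total, and without BMP2 replicate II, BMP2 replicate IV, control replicate III or control replicate VI it was 1, the call of Cdx2 being lost. Grhl3, a factor of barrier-forming epithelia, rose by 4.49, 2.30, 2.38 and 2.84 under BMP2, BMP5, BMP7 and Tgfb. Fosl1, an AP-1 member, rose by 3.71 with BMP2, 1.78 with BMP5 and 2.10 with BMP7. Klf4, a factor of differentiating epithelium, went from 498 ± 78.7 (SD, n = 4) to 7670 ± 1270 under BMP4 (SD, n = 3), a log2 change of 3.94, and Junb rose by 1.79 with BMP4 and 2.70 with Tgfb. Both genes are also in the villus tip list. Cdx1, an intestinal homeobox factor, fell by 2.46, 0.62, 0.67 and 0.93 under BMP2, BMP5, BMP7 and Tgfb. It was lower with BMP4 too, at 907 to 1360 normalized counts against 2140 to 2380 in controls, though not among the 2 that fell most. Sox9, a crypt factor, fell by 2.07 and Grhl2 by 1.30 with BMP4, Gata4 fell by 0.38 with BMP5, and Cdx2 fell by 0.64 with Tgfb. With BMP2 the Cdx2 groups overlapped (log2 difference -0.43, adjusted p 0.0309), and without those 4 samples in turn the adjusted p was 0.153, 0.0782, 0.0683 and 0.0980.

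Of the other keratin genes, 9 were tested in the BMP table and 4 in the TGFb table. BMP2 gave 6 called higher and 1 lower, BMP4 4 and 2, BMP5 5 and 0, BMP7 6 and 0, and Tgfb 2 and 0, where the background shares are those given above. Krt16, Krt6a, Krt36 and Krt12 passed the filter through treated samples alone, as did Krt79, Krt87 and Krt15 in the TGFb table, and the remaining 5 genes gave 2 and 1, 1 and 2, 2 and 0, and 2 and 0 with the BMPs, and the remaining 1 gave 0 and 0 with Tgfb. The BMP2 counts were 11 and 4 without the filter on low values and 3 and 0 with a stricter one, and the BMP4 count of higher genes was 2 with that filter, with an added constant of 10, with the same total and without BMP2 replicate II. Krt16 lay at 0 to 0.888 normalized counts in controls, at 197 to 408 with BMP2, at 32.7 to 59.7 with BMP7, at 2.69 to 39.8 with BMP5 and at 0 to 2.39 with BMP4. Krt6a, whose reads can be shared with near-identical copies, lay at 0 to 1.78 in controls, 244 to 466 with BMP2, 21.0 to 38.5 with BMP7, 8.97 to 26.5 with BMP5 and 5.70 to 43.1 with BMP4. Both were highest with BMP2, as Krt14 was, and for Krt16 the BMP4 range overlapped the controls. Krt36 lay at 0 to 1.66 in controls, 14.1 to 74.7 with BMP2 and 4.79 to 7.99 with BMP4. With BMP7 it lay at 16.4 to 23.6 and with BMP5 at 5.38 to 16.7. Krt12 lay at 0 to 2.66 in controls, 20.5 to 48.8 with BMP2 and 14.8 to 19.0 with BMP4. With BMP7 it lay at 5.47 to 6.35 and with BMP5 at 2.69 to 10.0. Krt79 was at 0.0401 ± 0.0393 TPM in controls and 5.24 ± 0.908 with Tgfb (SD, n = 3 each). Krt87 fell by 2.16 and Krt15 by 1.80 with BMP4, Krt4 fell by 2.21 with BMP2, and Krt87 rose by 1.03 with Tgfb.

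Across the 20 samples of the BMP table, the members did not all share a pattern. Pearson's r of log2 values was 0.991 between Krt8 and Krt19, 0.991 between Krt7 and Krt14, 0.818 between Krt20 and Krt14, and lowest, 0.548, between Krt20 and Krt80. These correlations describe samples that share treatment groups and carry no p. Of 14746 genes, the closest to Krt8 was Actb, the gene of beta-actin (0.997), followed by Mboat1 (0.996) and Serinc2 (0.994). Closest to Krt14 were Capn2 (0.991), the member Krt7 (0.991) and Anxa8 (0.989). Closest to Krt20 were Mvp, the gene of the major vault protein (0.992), Dgat2, an enzyme of triglyceride synthesis (0.992), and Tmc6 (0.991). Dgat2 stood at 684 ± 114 without ligand, at 5125 ± 1388 under BMP2 (SD, n = 4 each) and at 4253 ± 450 under BMP4 (SD, n = 3), while BMP5 and BMP7 gave 1437 ± 543 and 1780 ± 546 (SD, n = 3 each).

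In the mesenchymal cells, with 1 sample per state and no test, the keratins were low. Freshly isolated cells had Krt18 at 19.2 TPM, Krt8 at 9.10, Krt7 at 5.58 and Krt19 at 5.37. Immortalised and sorted cells had Krt19 at 6.65, Krt80 at 1.86, Krt7 at 0.988 and Krt18 at 0.0868, and Krt8 was listed at 0. Krt5, Krt17 and Krt23 were listed at 0 in both samples, and Krt14 was at 0.627 in the fresh cells.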

How the data were processed

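The BMP table holds signal values that the authors made by dividing gene counts by a scaling factor per sample, in 3 significant digits, as the deposited values show: of 180721 values worth at most 20 reads, 100% lay within 0.1 of a whole read. The TGFb and mesenchymal tables hold TPM as deposited by the authors, and their depth is unknown. Per the submitters' processing notes, Trim Galore, Salmon, DESeq2 and GRCm39 were used, with roles not given in the sources used here. Libraries were sequenced in 2 runs to which the labels assign no sample, so run and group cannot be told apart.

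Values were tested as log2(value + 1) with limma 3.58.1 (trend, two-sided, Benjamini-Hochberg over all genes, threshold 0.05) in R 4.3.3, in 1 fit per table, for genes with a mean of at least 10 normalized counts (14746 genes) or 1 TPM (12959 genes). edgeR 4.0.16 and DESeq2 1.42.0 on the recovered reads, other added constants, filters and scalings, the replicate number as a block, and leaving out each sample served as alternatives, and fits were tested on simulated data. Ratios were tested by exact permutation with scipy 1.17.1. The members and gene lists were chosen with earlier results of these data known. From each list and ligand, up to 2 genes (3 for other keratins) with the largest called log2 changes in each direction were named. The replicate numbers paired samples for BMP3, BMP4, BMP5 and BMP7, whose same-numbered deviations from the group means correlated at 0.158 to 0.553. Intervals cover the spread between samples only.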

Additional observations from a re-analysis of the deposited data

Results flagged for a closer look

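In 20 groups of 4 samples, 3 had a sample far from the other 3. Chance marks about 1 group in 20 of continuous values, a rate that does not hold for the 2 groups below in which 3 samples had no read. Krt20 with BMP2 stood at 85400 normalized counts in replicate VI and at 54200 to 57300 in the other 3. Krt17 in untreated organoids stood at 0.83, or 1 read, in replicate III and at 0 in the other 3. Krt5 in untreated organoids stood at 2.66, or 3 reads, in replicate II and at 0 in the other 3.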

How the results depend on the processing

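Of 72 called member values, 68 kept their direction and their side of the threshold under every alternative run and 0 changed direction. Of 24 values that were not called, 16 changed direction under at least 1. The 4 called values that lost their call are those of Krt18, Krt7 and Krt23 with BMP4 and of Krt14 between BMP4 and BMP5, given above, and the cause was not tested. Of 1630 recomputed counts of the other gene lists, 59 moved by over 1.5 times.

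Between BMP5 and BMP7, limma called 2 of all genes, against 0 with an added constant of 0.1 or a stricter filter, 7 with an added constant of 10, 4 without a filter, 1 with quantile normalization, the same total or no trend, 6 with the replicate block, 4 with edgeR, 24 with DESeq2, and 0 to 9 with a sample left out. For BMP3 DESeq2 called 1 gene, and limma called 0 to 1 with a sample left out. With BMP5 and a sample left out, the count ran from 2517 (without BMP5 replicate III) to 4301. For BMP4 against BMP7, quantile normalization called 8 keratins, 1 higher and 7 lower.

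Direction changed for these uncalled log2 values. With BMP3, Krt7 was 0.00335 with the same total and 0.102 with the block, Krt19 0.0710 and Krt20 0.167 with the block. With BMP4, Krt80 was 0.183 with quantile normalization. Between BMP4 and BMP5, Krt8 was -0.332 with quantile normalization and -0.115 with the same total. Between BMP4 and BMP7 it was -0.531, -0.307 and, with edgeR, -0.0849. Between BMP5 and BMP7, Krt23 was 0.0298 with quantile normalization and 0.00933 with the same total.

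With a sample left out, BMP3 values ran from -0.129 to 0.0996 for Krt7, -0.0440 to 0.0926 for Krt8, -0.134 to 0.0291 for Krt19, -0.205 to 0.129 for Krt20, -0.0493 to 0.252 for Krt23 and -0.0615 to 0.622 for Krt80. Krt80 with BMP4 ran from -0.446 to 0.237, Krt19 between BMP4 and BMP5 from -0.426 to 0.0955, and Krt8 between BMP4 and BMP7 from -0.176 to 0.181. Between BMP5 and BMP7 the ranges were -0.413 to 0.145 for Krt7, -0.440 to 0.0120 for Krt8, -0.251 to 0.128 for Krt18, -0.441 to 0.0807 for Krt19, -0.922 to 0.0562 for Krt20 and -0.115 to 0.0876 for Krt23.

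The replicate block called Krt20 higher with BMP2 than with BMP4 (0.53, adjusted p 0.0215) and Krt23 between BMP4 and BMP5 or BMP7, and changed no other call of a member. For BMP2 the same-numbered samples correlated at 0.195, 0.308 and 0.421 and, for replicate III, at 0.0182, so the pairing held for 3 of 4 numbers and was not taken as given. For Tgfb they correlated at 0.00405 to 0.0696. The ratio tests between BMP2 and BMP4 and their alternatives were chosen after seeing the data. Depth limits Krt5, Krt17 and the untreated level of Krt14, which rest on a few reads.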
